A study of Mus musculus with 6 samples.

Results

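Bone marrow is held in a meshwork of secreted proteins, and the genes described here encode its structural parts: the collagens, the laminins and nidogens of basement membranes, fibronectin and other adhesive glycoproteins, small proteoglycans, and the enzymes and chaperone that fold and cross-link collagen. The list named 35 such genes, and a gene was read where the array's annotation gave a probe set that single symbol. This held for 33 genes with 74 probe sets, of 18193 genes on the array. Fbn1 and Loxl2 had no such probe set and were not analysed here. Each gene is given by its brightest probe set. Other probe sets are described for some genes only, so those of the remaining genes may differ.

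Expression was measured on Affymetrix arrays, 1 per sample, in marrow of adult female F1 mice from 2 crosses that share the FVB/NJ strain as a parent. There were 3 arrays of (AKR/J x FVB/NJ)F1 marrow, called AKR F1, and 3 of (DBA/2J x FVB/NJ)F1 marrow, called DBA F1. No treatment, transgene or induced mutation is named in the labels, and the question was which transcripts differ at baseline between the genotypes. The labels do not say whether samples came from separate animals or from pools, so p-values measure only the spread between these samples, which may be technical.

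Marrow matrix is laid down mainly by stromal cells, osteoblasts, the cells of vessel walls and, for some glycoproteins, megakaryocytes and macrophages. Fibrillar collagens give bone and connective tissue their tensile strength. Basement membranes, built from laminin and collagen IV sheets joined by nidogens, line vessels and surround fat and muscle cells. Glycoproteins such as thrombospondin and tenascin act more as signals to cells than as scaffolds. The arrays read RNA of whole marrow, in which fewer cells of a type and less RNA per cell cannot be told apart.

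All values are on the log2 scale, and differences are AKR F1 minus DBA F1 with the standard error (SE) of limma's fit over all 18193 genes, called at a Benjamini-Hochberg adjusted p under 0.05. The array medians lay between 5.14 and 5.19. Of 9 measured blood cell markers, 8 were above the median probe set level of 5.17, and the neutrophil granule genes Ngp and Camp lay between 13.85 and 14.51 in all 6 arrays. The exception was Hba-a1, an alpha-globin gene, with means of 3.70 in AKR F1 and 3.68 in DBA F1. The 932 probe sets with several symbols were not read, so this value may not give the level of alpha-globin RNA. Features beside the genotype also separated the groups. The skeletal muscle marker list, of which all 20 members were measured and lay above that median level, had a mean of 6.66 to 7.91 in AKR F1 and 8.39 to 11.01 in DBA F1, with the highest value in DBA F1 replicate 1. The index of 3' minus 5' signal of the array's control probe sets, a sign of RNA and labelling quality, was 1.66 to 2.22 in AKR F1 and 1.44 to 1.54 in DBA F1. The mean of the hybridization controls was 9.74 to 9.95 in AKR F1 and 10.27 to 10.72 in DBA F1.

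Of 33 matrix genes, 2 were higher in AKR F1 (Col5a1 and Col6a1), 3 were lower (Thbs1, Nid1 and Lamb1) and 28 did not pass the test. That is 15.2% called, and 15.2% of all genes were called, 9.2% higher and 6.04% lower. The median difference was -0.02, against 0.06 over all genes, and the called changes ran from 1.30-fold to 1.72-fold. The 3 arrays of one group lay wholly above those of the other in 6 of the 33 genes, 3 in each direction, where this held for 36.7% of all genes (23% with AKR F1 above and 13.7% with DBA F1 above). At the level of probe sets, 6 of 74 were higher and 4 lower, that is 13.5% against 12.3% of all probe sets (5.57% higher and 6.73% lower).

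**Figure D1:**
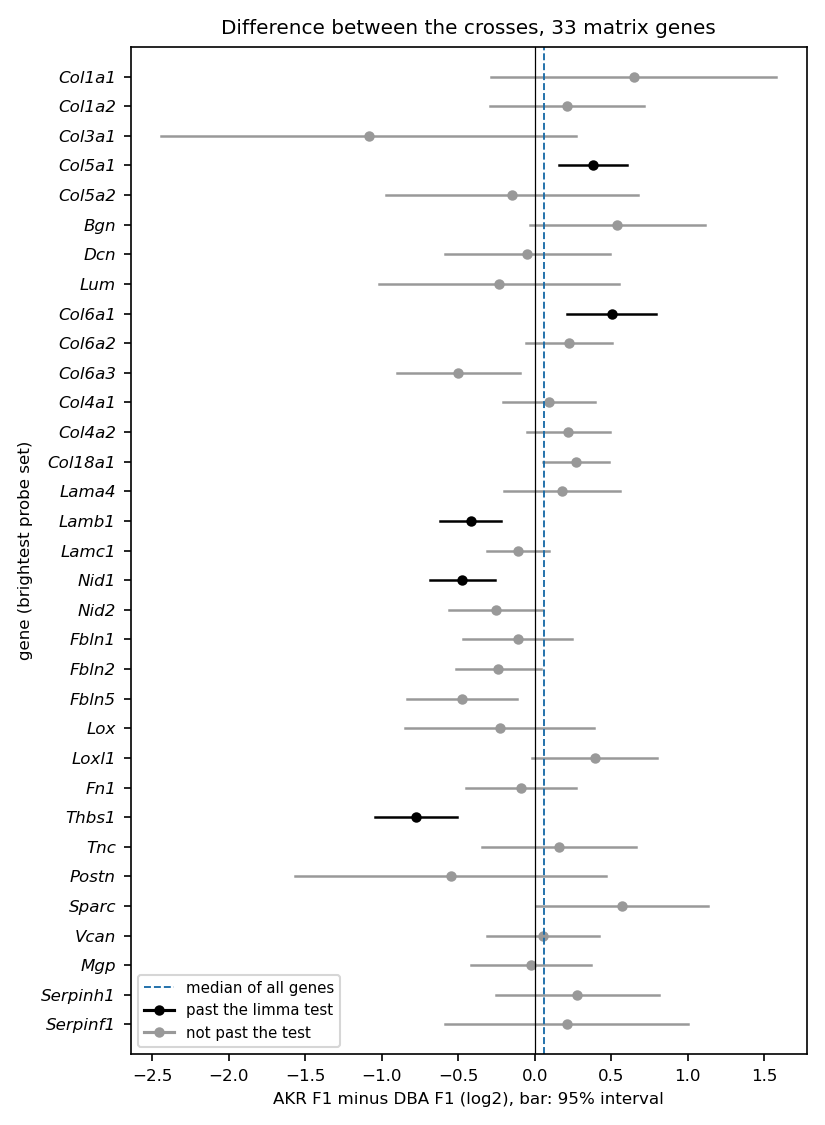
Difference between AKR F1 and DBA F1 (log2, x axis) of 33 matrix genes (y axis, grouped by role). Points are limma estimates from 3 arrays per group, bars are 95% intervals, black marks the 5 genes past the test, and the dashed line is the median of all genes at 0.06. The widest interval is that of Col3a1, from -2.44 to 0.27.

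Promoters of the called genes are shown first, as the reference sequence that precedes each start site. RefSeq's table for build GRCm38.p6 held a window for 21 of the 33 genes, matched by symbol, among them 4 of the 5 called genes and not Thbs1. The build is of C57BL/6J, which is a parent of neither cross, and strain variants were not analysed here. Each line gives the 250 bases before the start on the gene's strand. Capitals mark the motifs CCAAT (the box bound by NF-Y), GGGCGG (the GC box bound by SP1) and TATAAA (the TATA box), searched on both strands with overlaps allowed.
Col5a1, chr2:27886175-27886424, plus strand: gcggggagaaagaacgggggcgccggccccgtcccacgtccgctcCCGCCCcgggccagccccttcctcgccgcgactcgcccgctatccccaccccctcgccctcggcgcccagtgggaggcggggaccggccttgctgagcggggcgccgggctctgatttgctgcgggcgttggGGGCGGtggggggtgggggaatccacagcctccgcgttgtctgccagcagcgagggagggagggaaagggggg
Col6a1, chr10:76726045-76726294, minus strand: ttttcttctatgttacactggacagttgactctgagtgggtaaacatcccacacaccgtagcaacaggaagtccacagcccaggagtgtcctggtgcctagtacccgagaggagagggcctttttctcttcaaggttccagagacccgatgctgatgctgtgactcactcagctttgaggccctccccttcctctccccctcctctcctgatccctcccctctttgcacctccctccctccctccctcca
Lamb1, chr12:31265043-31265292, plus strand: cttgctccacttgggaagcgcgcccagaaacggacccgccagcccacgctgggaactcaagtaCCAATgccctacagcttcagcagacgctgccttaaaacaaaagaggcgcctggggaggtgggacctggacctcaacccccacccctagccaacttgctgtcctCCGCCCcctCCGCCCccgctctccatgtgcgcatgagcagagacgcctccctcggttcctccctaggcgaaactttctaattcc
Nid1, chr13:13437352-13437601, plus strand: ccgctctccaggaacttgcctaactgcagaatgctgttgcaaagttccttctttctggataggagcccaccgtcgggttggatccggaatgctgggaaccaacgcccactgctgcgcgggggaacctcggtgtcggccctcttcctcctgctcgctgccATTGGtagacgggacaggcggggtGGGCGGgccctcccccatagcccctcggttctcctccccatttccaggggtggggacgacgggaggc
Lamb1 and Nid1, the pair of basement membrane genes that were lower in AKR F1, each held 1 CCAAT, and they held 2 and 1 GGGCGG respectively. Col5a1 held 2 GGGCGG and no CCAAT, and the Col6a1 window held none of the 3 motifs in these letters. CCAAT was in the windows of 9 of the 21 genes and in 33.8% of all 32851 windows of this length. GGGCGG was in 14 of 21 against 32.7%, and TATAAA in 3 of 21 (Col3a1, Postn and Tnc) against 12.4%. The 32851 windows outnumber the 18193 genes read here and their makeup was not analysed, so these shares cannot show a trait of matrix genes.

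Among the fibrillar collagens, only Col5a1 passed the test at its brightest probe set. Col5a1 encodes a chain of collagen V, which sits inside collagen I fibrils and limits their width. It was at 9.66, 9.58 and 9.66 in AKR F1 replicates 1 to 3 and at 9.40, 9.12 and 9.24 in DBA F1. The groups did not overlap, and the difference was 0.38 (SE 0.10, 1.30-fold, adjusted p = 0.035 in limma). The dimmer probe sets of Col5a1 had the same direction and also passed, at 0.48 and 0.36 (adjusted p = 0.027 and 0.043 over all probe sets in limma), so all 3 probe sets of this gene were higher in AKR F1. The call was made in 1 of 6 fits that left out an array, the one without DBA F1 replicate 1.

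Col1a1, which encodes the main chain of collagen I, differed between its probe sets. The brightest was at 13.12, 13.38 and 12.999 in AKR F1 and at 13.65, 11.76 and 12.14 in DBA F1. DBA F1 replicate 1 was the highest of all 6 arrays and the other DBA F1 arrays were the lowest, so the groups overlapped and the difference of 0.65 (SE 0.41) did not pass (adjusted p = 0.33 in limma). The second probe set, 1455494_at, was at 11.71, 12.41 and 11.90 in AKR F1 and at 10.45, 10.13 and 10.07 in DBA F1. It was 3.47-fold higher in AKR F1 (difference 1.79, SE 0.19, adjusted p = 0.0024 over all probe sets in limma) and stayed past the threshold whichever array was left out. It did not pass with the 3' to 5' index or the hybridization control mean as a covariate, where no matrix probe set passed. Where in the transcript these probe sets lie, and whether strain variants lie under them, was not analysed here, and the part of the 3' to 5' index in this gap was not tested.

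The partner chain gene Col1a2 was at 13.63, 13.81 and 13.45 in AKR F1 and at 13.91, 12.93 and 13.42 in DBA F1, with DBA F1 replicate 1 again highest and replicate 2 lowest. The difference of 0.21 (95% interval -0.29 to 0.71) did not pass. The dimmer probe sets of Col1a2 had the opposite sign, at -0.1 and -0.26, and did not pass either. Col5a2, the second chain of collagen V, was at 10.61, 11.13 and 10.57 against 11.82, 10.18 and 10.76. It had the same highest and lowest array, and its interval ran from -0.97 to 0.67.

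Col3a1 encodes the collagen of reticular fibres, the fine mesh of marrow and vessel walls, and had the largest difference of the list. It was at 7.58, 7.17 and 6.78 in AKR F1 and at 9.92, 7.51 and 7.36 in DBA F1. The difference of -1.09 (SE 0.59) did not pass (adjusted p = 0.26 in limma), and it rested on DBA F1 replicate 1, which was 5.60-fold above the mean of the other DBA F1 arrays. Without that array the difference was -0.26. The dimmer probe set of Col3a1 followed, at 5.67 in that array and between 3.31 and 3.55 in the other 5.

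**Figure D2:**
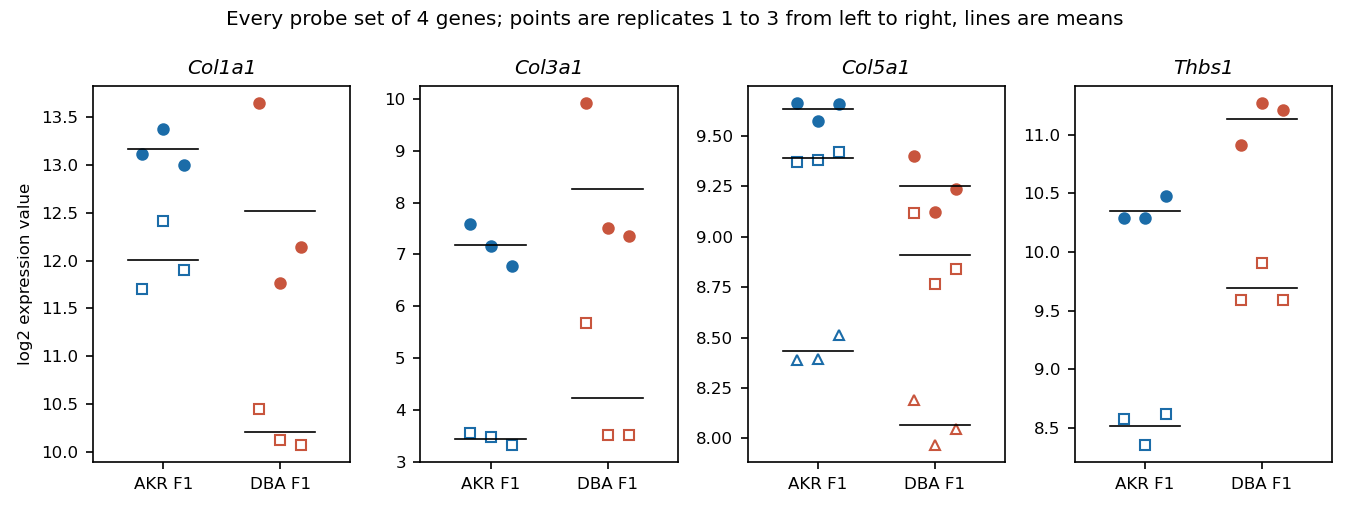
Log2 expression value (y axis) of every probe set of Col1a1, Col3a1, Col5a1 and Thbs1 in AKR F1 and DBA F1 (x axis). Points are arrays, filled circles the brightest probe set, open squares and triangles the others, and lines the means of 3 arrays. The Col1a1 and Col3a1 circles spread widely in DBA F1, with DBA F1 replicate 1 at 13.65 and 9.92, while all 3 probe sets of Col5a1 and both of Thbs1 separate the groups.

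The proteoglycans that bind collagen fibrils showed the same wide spread. Bgn (biglycan) was at 10.05, 10.14 and 9.90 in AKR F1 and at 10.18, 9.13 and 9.18 in DBA F1. All AKR F1 arrays thus lay above DBA F1 replicates 2 and 3 and below replicate 1, and the difference of 0.54 did not pass (adjusted p = 0.19 in limma). Dcn (decorin) and Lum (lumican) differed by -0.05 and -0.24, with DBA F1 replicate 1 highest and DBA F1 replicate 2 lowest in each.

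Collagen VI forms beaded filaments around cells, each built from the products of Col6a1, Col6a2 and Col6a3. Col6a1 was at 8.94, 8.87 and 8.75 in AKR F1 and at 8.58, 8.36 and 8.11 in DBA F1, without overlap. It was 1.42-fold higher in AKR F1 (difference 0.50, SE 0.13, adjusted p = 0.033 in limma). This call was made in 1 of 6 fits that left out an array, the one without DBA F1 replicate 1. Col6a2, its neighbour on chromosome 10, was 0.22 higher at the brightest probe set, which did not pass. Its other probe set, 1426947_x_at, differed by 0.57 and did (adjusted p = 0.045 over all probe sets in limma). Probe sets with this suffix may also bind other transcripts. Col6a3, on chromosome 1, lay in the other direction at -0.50 (95% interval -0.90 to -0.10, adjusted p = 0.091 in limma).

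Basement membrane genes held 2 of the 3 calls lower in AKR F1. Nid1 encodes nidogen-1, the link between laminin and collagen IV. It was at 6.95, 6.91 and 7.05 in AKR F1 and at 7.53, 7.33 and 7.46 in DBA F1, and every AKR F1 array was below every DBA F1 array. The difference was -0.48 (SE 0.09, 1.39-fold lower, adjusted p = 0.015 in limma) and passed in 5 of 6 fits that left out an array, all but the one without AKR F1 replicate 2. Its other probe sets differed by -0.15 and -0.09, did not pass and lay below the median level of the arrays.

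Lamb1 encodes a beta chain shared by many laminins. It was at 6.56, 6.46 and 6.47 in AKR F1 and at 7.00, 6.88 and 6.87 in DBA F1, again without overlap. It was 1.34-fold lower in AKR F1 (difference -0.42, SE 0.09, adjusted p = 0.018 in limma). It passed in 4 of 6 fits that left out an array, not without AKR F1 replicate 2 or 3. The probe set, 1424114_s_at, is of a kind that may bind transcripts of other genes. The next probe set differed by -0.35 (adjusted p = 0.083 over all probe sets in limma), and the remaining ones by 0.01 and 0.04. All of these dimmer probe sets lay below the median level.

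The other basement membrane genes did not pass. Lamc1, a gamma chain that pairs with Lamb1, differed by -0.11 (95% interval -0.31 to 0.09), Lama4, an alpha chain of vessel walls, by 0.18, and Nid2, the second nidogen, by -0.25. The dimmer probe set of Lama4, below the median level, had the opposite sign (-0.25) without overlap of the groups and did not pass. Col18a1, which carries the endostatin domain, was at 5.78, 5.89 and 5.84 in AKR F1 and at 5.70, 5.56 and 5.45 in DBA F1. Its groups did not overlap, but the difference of 0.27 missed the threshold (adjusted p = 0.093 in limma). Col4a1 and Col4a2, the chains of the common collagen IV, are neighbours on chromosome 8 on opposite strands, and their 300-base promoter windows overlap by 78 bases in GRCm38.p6. They differed by 0.09 (95% interval -0.21 to 0.40) and 0.22 (-0.05 to 0.49).

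No gene of the elastic fibre and cross-linking group passed. Fbln5, which guides elastic fibre assembly, came nearest, at 8.52, 8.77 and 8.23 in AKR F1 and 8.75, 9.07 and 9.13 in DBA F1 (difference -0.48, adjusted p = 0.075 in limma). AKR F1 replicate 2 lay just above DBA F1 replicate 1, and a second, dim probe set had the opposite sign (0.33). Fbln1 and Fbln2 were at 4.88 ± 0.22 and 4.40 ± 0.12 in AKR F1 (mean ± SD, n = 3), below the median probe set level, and differed by -0.11 and -0.24. Of the lysyl oxidases, which cross-link collagen and elastin, Lox differed by -0.23 (95% interval -0.85 to 0.39) and Loxl1 by 0.39 (-0.02 to 0.80).

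Thbs1 had the smallest p of the list. It encodes thrombospondin-1, an adhesive glycoprotein of platelets, monocytes and stroma that activates latent TGF-beta and restrains vessel growth. It was at 10.29, 10.29 and 10.47 in AKR F1 and at 10.91, 11.27 and 11.21 in DBA F1. It was 1.72-fold lower in AKR F1 (difference -0.78, SE 0.12, adjusted p = 0.0071 in limma) and the only one of the 33 genes called in all 6 fits that left out an array. The second probe set was 2.27-fold lower, at 8.58, 8.35 and 8.62 against 9.59, 9.90 and 9.59 (adjusted p = 0.0024 over all probe sets in limma). Here DBA F1 replicate 1 was the lowest DBA F1 array at the brightest probe set, unlike in the fibrillar collagens. Of the cell types that make Thbs1, the megakaryocyte and platelet markers had 2 of 9 higher in AKR F1 and none lower (list means 11.05 to 11.35 in AKR F1 and 10.77 to 11.18 in DBA F1). The monocyte and macrophage markers had 5 of 13 higher and 1 lower (9.20 to 9.42 and 8.98 to 9.11). C1qc, Marco and C1qb were among the higher ones, and the lower one was F13a1 (difference -0.57). The stroma markers had 1 of 12 higher, Igfbp4, and 1 lower, Pdgfra. Of all genes, 9.2% were called higher and 6.04% lower. The part of these cells in the Thbs1 difference was not tested.

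The remaining glycoproteins and matrix-associated genes did not pass. Sparc, a calcium-binding protein of bone and platelets, was at 12.88, 13.26 and 12.85 in AKR F1 and at 13.02, 11.96 and 12.29 in DBA F1 (difference 0.57, adjusted p = 0.16 in limma). Only DBA F1 replicate 1 reached into the AKR F1 range at this probe set. The second probe set of Sparc, 1448392_at, differed by 0.15 (adjusted p = 0.79 over all probe sets in limma). DBA F1 replicate 1 was the highest array there, at 12.64, and no fit that left out an array called it. The dimmest probe set differed by 0.18 without overlap of the groups and did not pass. Fn1 (fibronectin) was at 9.97, 10.25 and 10.27 against 10.59, 10.14 and 10.02, a difference of -0.09 (95% interval -0.45 to 0.27). Postn, a periosteal protein, was at 7.99, 7.42 and 7.70 against 9.30, 7.16 and 8.31, with DBA F1 holding the highest and the lowest array. Tnc (tenascin-C) differed by 0.16, Vcan (versican) by 0.05 and Mgp (matrix Gla protein) by -0.02. The other probe sets of Vcan, all below the median level, differed by -0.43 to 0.16, and none passed. The collagen chaperone gene Serpinh1 differed by 0.28 and Serpinf1, which encodes the antiangiogenic factor PEDF, by 0.21. The dimmer probe set of Serpinf1 had the opposite sign (-0.12) and did not pass.

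Matrix genes were spread widely between arrays of the same group. The SD between replicates had a median of 0.19 in AKR F1 and 0.30 in DBA F1, against 0.10 and 0.13 over all genes, and DBA F1 had the larger SD in 29 of the 33 genes (87.9%, against 62.9% of all genes). DBA F1 replicate 1 was the highest of the 6 arrays in 17 of 33 genes (51.5%, against 15.2% of all genes), and DBA F1 replicate 2 the lowest in 16 (48.5%, against 16.3%). In 7 of the 33 genes replicate 1 was more than 2-fold above the mean of DBA F1 replicates 2 and 3, as it was in 0.748% of all genes. These were Col3a1 (5.60-fold), Col1a1 (3.23-fold), Postn (2.95-fold), Col5a2 (2.56-fold), Serpinf1 (2.34-fold), Lum (2.17-fold) and Bgn (2.03-fold). By role, the median excess of this array was 1.35 for fibrillar collagens, 1.02 for proteoglycans, 0.64 for the glycoproteins and other genes, 0.34 for collagen VI, 0.17 for basement membrane genes and 0.01 for the elastic fibre group. This array also had the highest skeletal muscle mean (11.01), and the highest osteoblast marker mean, 7.59 against 7.07 and 7.38 in the other DBA F1 arrays and a range of 7.27 to 7.49 in AKR F1. Des, the desmin gene, is on both muscle lists and was at 8.50 there. The other 5 smooth muscle markers had a mean of 6.54 in that array, below DBA F1 replicate 2 (6.63) and all AKR F1 arrays (6.62 to 6.66). The marrow stroma marker mean was 8.96 there and 8.89 and 8.97 in the other DBA F1 arrays. The part of these tissues in the matrix levels was not tested.

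**Figure D3:**
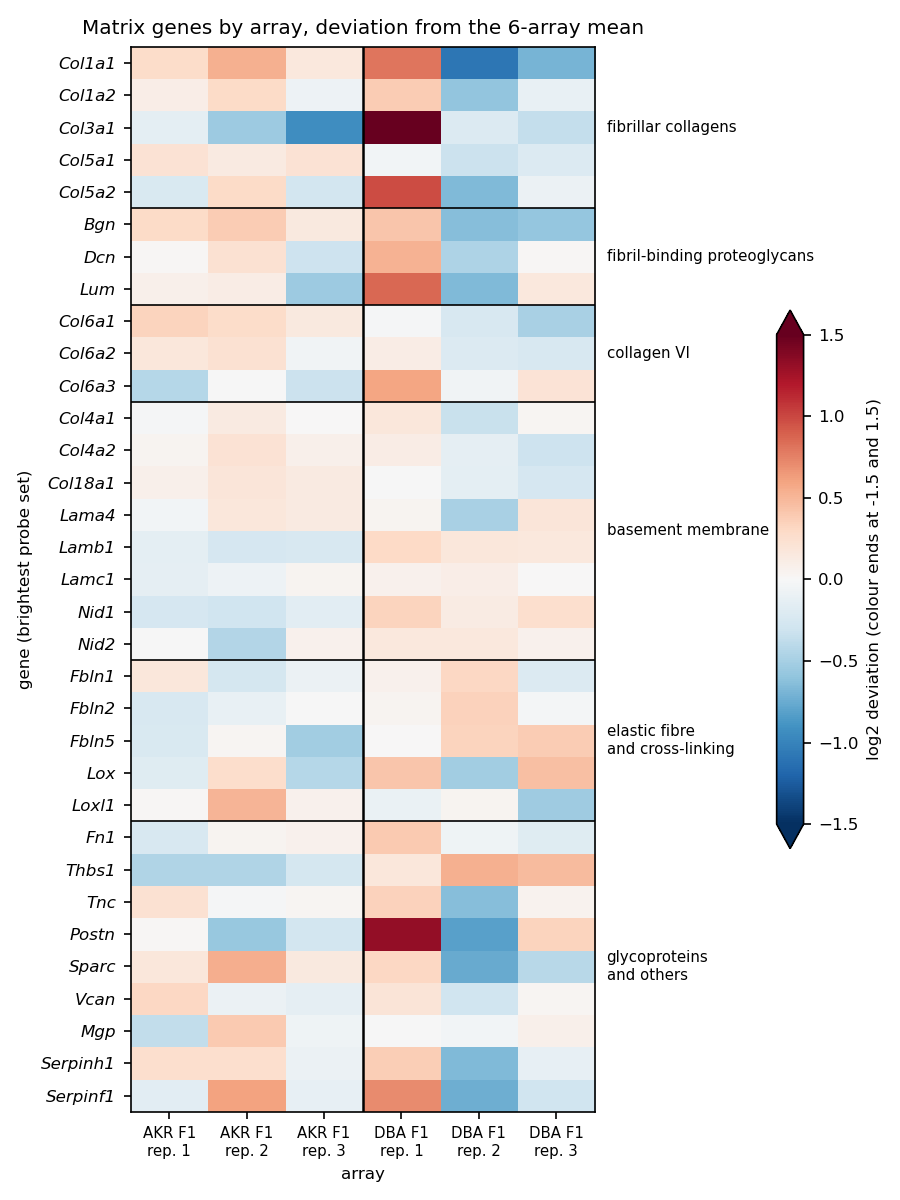
Matrix genes (rows, by role) in the 6 arrays (columns), coloured by the log2 deviation of each value from the gene's mean over the 6 arrays. DBA F1 replicate 1 is the highest array in 17 of 33 genes, most of all in the fibrillar collagens and proteoglycans, and DBA F1 replicate 2 is the lowest in 16.

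Without DBA F1 replicate 1, more matrix genes were called. In that fit of 3 against 2 arrays 9 of 33 genes passed (27.3%, against 17.9% of all genes), 5 higher and 4 lower (11.8% and 6.07% of all genes), and the 5 genes called with all arrays were among them. The added genes were Col1a1, 2.31-fold higher in AKR F1 (difference 1.21, adjusted p = 0.0044 in limma), Bgn (1.84-fold higher), Sparc (1.83-fold higher) and Fbln5 (1.51-fold lower). The median of the 33 differences moved from -0.02 to 0.20, with 20 of 33 above 0, while that of all genes stayed at 0.06. The array was picked here for its high values in these same genes. Leaving it out therefore raises most of their differences, and the added calls are no separate evidence of a difference between the crosses. The signs of 4 genes changed, none of them past the test in either fit. With the skeletal muscle mean as a covariate, 6 matrix genes were higher in AKR F1 and 1, Thbs1, was lower, where 0.555% of all genes passed (0.385% higher and 0.17% lower). The 6 were Sparc, Col1a1, Serpinf1, Col5a2, Bgn and Col1a2, with differences from 1.02 to 2.18. Col5a2 had the opposite sign, -0.15, without the covariate. The muscle mean does not overlap between the groups and is highest in DBA F1 replicate 1, so the differences from this fit are extrapolated. They cannot be told apart from an effect of the covariate. Col5a1 (0.55), Col6a1 (0.75), Nid1 (-0.38) and Lamb1 (-0.33) kept their sign with the covariate but did not pass (adjusted p = 0.12, 0.1, 0.24 and 0.27 in limma).

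**Figure D4:**
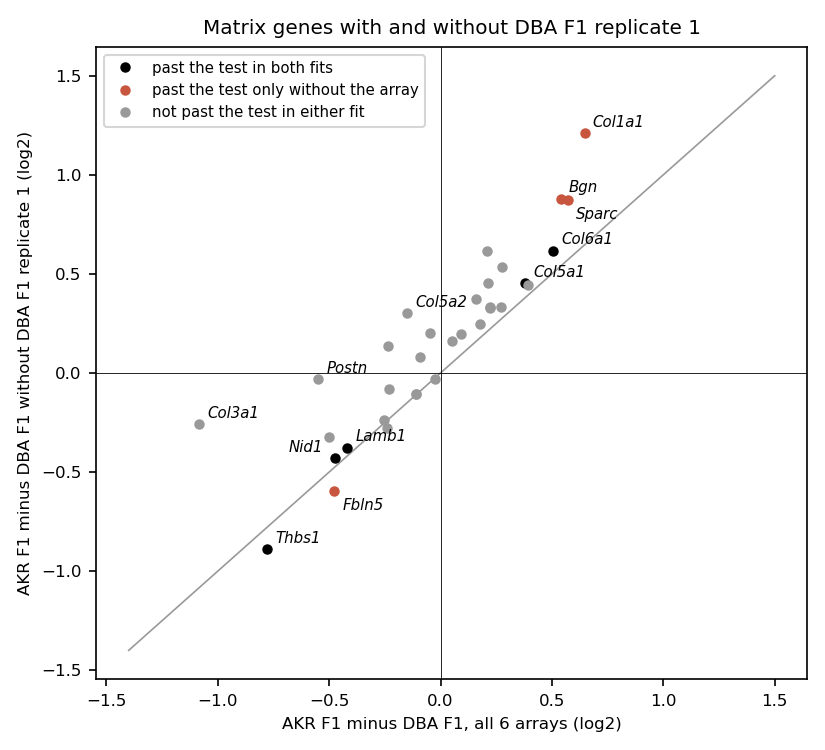
Difference between the crosses (log2) with all 6 arrays (x axis) and without DBA F1 replicate 1 (y axis), 1 point per matrix gene, with the line of equal values. Col1a1, Bgn and Sparc lie above the line and pass the test only without that array, Fbln5 lies below it and does so too, and Col3a1 moves from -1.09 to -0.26. The array was picked for its high values in these genes.

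With the 3' to 5' index as a covariate no matrix gene passed, nor did any with the hybridization control mean. In these fits 0.0165% and 0.011% of all genes passed, and the 5 called genes kept their sign in both. Against a change of 1.2-fold in place of no change, none of the 33 genes passed in limma, where 9 of the 33 had an unadjusted p under 0.05 in the main test.

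Of 29 measured genes that process and assemble the matrix, 2 were higher in AKR F1, 1 was lower and 26 did not pass (median difference 0.13). That is 10.3% called, against 15.2% of all genes. Bmp1, the protease that trims procollagen and activates lysyl oxidase, was at 8.14, 8.35 and 8.17 in AKR F1 and at 7.82, 7.19 and 7.40 in DBA F1, so that it was higher by 1.69-fold (adjusted p = 0.018 in limma). Plod2, the lysyl hydroxylase that sets the type of collagen cross-link, was 2.27-fold lower, at 7.81, 8.40 and 7.51 against 9.15, 8.67 and 9.44 (adjusted p = 0.018 in limma). Loxl3, of the lysyl oxidase family, was 1.29-fold higher. These calls were made in 4, 4 and 2 of 6 fits that left out an array. Without DBA F1 replicate 1, 8 genes of the list passed, 7 higher and 1 lower, where 17.9% of all genes passed (11.8% higher and 6.07% lower). As that array was picked for its high values in the matrix genes, the added calls are no separate evidence here either.

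Of 65 further structural genes, 7 were higher in AKR F1, 3 lower and 55 did not pass (15.4% called, against 15.2% of all genes, median 0.06). Comp, the cartilage oligomeric protein, was 2.15-fold higher (6.05 ± 0.16 against 4.95 ± 0.23, mean ± SD, n = 3 each, adjusted p = 0.0041 in limma). Smoc1, which encodes a secreted relative of SPARC, was 1.55-fold higher, and Ecm1 1.56-fold. Ogn, a small proteoglycan of bone, was 1.84-fold lower (6.78 ± 0.17 against 7.66 ± 0.21). Comp, Smoc1 and Ogn kept their calls in all 6 fits without 1 array, and Ecm1 in 3.

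The TGF-beta and PDGF pathways, which induce matrix genes, were read as a list of 19 measured genes that holds ligands, receptors, Smads, nuclear repressors and the matricellular genes Ccn1 and Ccn2. Of these, 2 were higher, 2 lower and 15 did not pass (21.1% called, against 15.2% of all genes, median 0.02). Tgfb1, the main TGF-beta of blood cells and platelets, was at 10.76, 11.00 and 10.92 in AKR F1 and at 9.96, 9.77 and 9.04 in DBA F1. It was 2.47-fold higher (difference 1.30, SE 0.21, adjusted p = 0.0093 in limma) and stayed past the threshold whichever array was left out. Pdgfb was 1.49-fold higher and Tgfb2 1.26-fold lower, the second at levels under 4. Each of these calls was made in 1 of 6 fits that left out an array. Pdgfra, the receptor gene that marks marrow stromal cells, was 1.55-fold lower (7.13 ± 0.06 against 7.76 ± 0.17, adjusted p = 0.0097 in limma).

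Markers of matrix-making cells were counted beside these genes, where 15.2% of all genes were called, 9.2% higher and 6.04% lower. The stroma list had 1 of 12 higher (Igfbp4) and 1 lower (Pdgfra), and 11 of the 12 were above the median level. Its mean was 8.78 to 8.93 in AKR F1 and 8.89 to 8.97 in DBA F1. The Igfbp4 call was made in 1 of 6 fits that left out an array, and that of Pdgfra in all 6. The osteoblast and smooth muscle lists had none called of 7 and 6, where 2 and 0 had an unadjusted p under 0.05. Of 10 endothelial markers, 3 were higher in AKR F1 and none lower (Kdr, Tie1 and Cdh5, with list means of 7.58 to 7.70 against 7.21 to 7.51). The calls of Kdr, Tie1 and Cdh5 were made in 3, 1 and 2 of 6 fits that left out an array. Chondrocyte markers had 1 of 7 called, Comp, and only 2 of the 7 were above the median level. Adipocyte markers had 1 of 5 higher, Lipe, and blood cell markers 2 of 9, Elane and Cd79a. The calls of Lipe, Elane and Cd79a were made in 5, 2 and 3 of those 6 fits. Of the skeletal muscle markers, 11 of 20 were lower in AKR F1, with a median difference of -2.47.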

How the data were processed

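Total RNA of snap-frozen marrow was extracted with Trizol, biotin-labelled and hybridised to Affymetrix arrays, per the labels' protocols. The deposited values are log2 signals of 45101 probe sets that the authors had normalized between arrays. RMA and MAS5 are named in the submitters' processing notes, and their roles are not given in the sources used here. Tests left out 64 control probe sets, and 34945 of the other 45037 had a single gene symbol in the platform annotation. A reference table of GRCm38.p6 gave chromosomes and neighbours.

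The main test compared the 3 AKR F1 with the 3 DBA F1 arrays in limma 3.58.1 (R 4.3.3), two-sided, with Benjamini-Hochberg adjustment over all 18193 genes (the brightest probe set of each) or all probe sets, at 0.05. An exact permutation of 3 against 3 arrays cannot give a two-sided p below 0.1. The 95% intervals use limma's moderated variance with 8.53 degrees of freedom and are not adjusted. Groups and numbers come from the sample titles. Arrays with the same number did not deviate together (correlations of 0.006, -0.060 and 0.073 over genes), and the main test did not pair them. Whether samples were handled in pairs is not given by the titles and cannot be told from these correlations. The fit was tested on simulated data.

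The members and all gene lists were chosen with earlier results of these data known. All 33 genes are named. Values per array are given for genes past the test, the 6 brightest, the 3 largest differences and others the text turns on, which were chosen after their values were seen. From the other lists, up to 4 called genes were named, those of smallest p. Cell type lists cover stroma, osteoblasts, chondrocytes, endothelium, smooth muscle, megakaryocytes and platelets, monocytes and macrophages, skeletal muscle, adipocytes and blood cells. The alternatives are given in the closing section, with the hybridization control covariate added after seeing the data. No per-sample column was left unused.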

Additional observations from a re-analysis of the deposited data

How the results depend on the processing

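The 5 matrix genes called kept their direction in every alternative run, and all 5 stayed past the threshold with quantile normalization, median centring, only genes above the median level, array weights, a trended and robust variance and the replicate block. With the replicate block 2357 genes passed in all, and the block changed no call among the 33 and no count by over 1.5 times. When all probe sets of a gene were averaged, 2931 genes passed in all and 4 matrix genes, with Col1a1 (1.22) in place of Nid1 and Lamb1. Leaving out 1 array gave 685 to 3248 genes called in all, 1 to 9 matrix genes, 3 to 17 of the 74 matrix probe sets and 0 to 8 assembly and processing genes, against 2771, 5, 10 and 3 with all arrays. The lows of 1 and 0 matrix and assembly genes came without AKR F1 replicates 2 and 3 respectively, and the highs without DBA F1 replicate 1. Without AKR F1 replicate 1, DBA F1 replicate 2 or DBA F1 replicate 3 the matrix count was 3.

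Array weights gave 9 matrix and 6 assembly genes, where 4149 genes passed in all. Quantile normalization gave 5 assembly genes, where 3023 genes passed in all. Against a 1.2-fold change 237 genes, 0 matrix genes, 2 matrix probe sets and 0 assembly genes passed. With the 3' to 5' index as a covariate these counts were 3, 0, 0 and 0, and with the hybridization control mean 2, 0, 0 and 0, with a matrix median of -0.42. With the muscle mean as a covariate 101 genes passed in all, Thbs1 alone of the 5 called genes stayed past the threshold, the matrix median was 0.53 and Col5a2 turned to 1.23. At an adjusted p under 0.01, 526 genes, 1 matrix gene, 3 matrix probe sets and 0 assembly genes passed, and under 0.10 4243 genes, 8 matrix genes and 5 assembly genes. All 3 covariates separate the groups without overlap. The cause of these moves was not tested. The number of arrays limits the precision, and no detection calls were used.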
